A study of Mus musculus with 21 samples.

Results

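Neutrophils store their weapons in granules that are filled in sequence while the cell matures in the bone marrow. The specific granules hold lactoferrin (*Ltf*), lipocalin 2 (*Lcn2*), the cathelicidin *Camp*, the cathelicidin-related protein *Ngp* and the collagenase *Mmp8*, and the gelatinase granules, filled later, hold *Mmp9*. The calcium-binding alarmins *S100a8* and *S100a9* fill the cytosol, the resistin-like gene *Retnlg* is transcribed in maturing and circulating neutrophils, and *Cxcr2* is the surface receptor through which neutrophils follow CXC chemokines out of the marrow and into tissue.

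To describe these 10 genes (*S100a8*, *S100a9*, *Retnlg*, *Mmp8*, *Mmp9*, *Lcn2*, *Ngp*, *Camp*, *Ltf* and *Cxcr2*), their counts and FPKM values (fragments per kilobase of gene, scaled to library depth) were taken from mouse heart RNA libraries. They are 10 of the 56691 genes in the table, picked by name as neutrophil granule and surface genes. They were selected on their measured values in earlier results of these libraries. The contrast that chose them is taken to be doxorubicin (DOX) against Control, where *Retnlg* and *Mmp8* led, so that for the members comparisons using those libraries are given as values without p-values. The groups were Control (5 libraries, normal saline (NS), no tumor), DOX (5, no tumor), Tb (6, NS, tumor-bearing) and Tb-DOX (5, tumor-bearing, DOX). DOX, an anthracycline chemotherapeutic, was given into the peritoneum in 3 weekly doses of 5 mg/kg. Tumors grew from 4T1 cells, a mouse mammary carcinoma line, placed under the skin. The sources used here gave no strain, sex or age, and did not say whether hearts were perfused.

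Labels gave the tumor line as source material throughout, whereas the study's methods described hearts. The 7 cardiomyocyte markers summed to 11287 to 17642 FPKM over all libraries, and the 6 epithelial markers of 4T1 cells to 0.13 to 2.54 FPKM. Libraries held 13521200 to 18601445 counts. The members took 0.00019% to 0.00286% of the counts in Control, 0.00114% to 0.00777% in DOX, 0.0591% to 0.555% in Tb and 0.0876% to 0.439% in Tb-DOX. In bulk RNA, fewer neutrophils and less RNA per neutrophil cannot be told apart, and blood in the vessels was not separated from cells in the tissue. Labels did not state that libraries came from separate animals, so p-values measure the spread between these samples.

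All 10 members passed the filter on low values (a mean FPKM of at least 0.5 over 21 libraries), but only *S100a8*, *S100a9*, *Retnlg* and *Lcn2* would have passed it in the non-tumor-bearing libraries alone. On GRCm39, as the table gives it, *S100a8* lay on chromosome 3 at 90576285 to 90577342 on the plus strand, and *S100a9* 22.6 kb away at 90599939 to 90603028 on the minus strand. *Camp*, *Ngp* and *Ltf* stood in a row on chromosome 9 within 1.20 Mb, and *Mmp8* lay elsewhere on that chromosome.

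Promoters of 4 members are shown because the members moved together while *Ltf* and *Mmp8*, both specific granule genes, stood furthest apart between tumor-bearing groups. Each is the RefSeq window from 250 bases before to 50 bases after the gene's start, on GRCm38.p6 and read along the gene. Capitals mark the C/EBP pattern TTNNGNAA, the PU.1 pattern GAGGAAGT and the TATA pattern TATAAA on either strand.
S100a8: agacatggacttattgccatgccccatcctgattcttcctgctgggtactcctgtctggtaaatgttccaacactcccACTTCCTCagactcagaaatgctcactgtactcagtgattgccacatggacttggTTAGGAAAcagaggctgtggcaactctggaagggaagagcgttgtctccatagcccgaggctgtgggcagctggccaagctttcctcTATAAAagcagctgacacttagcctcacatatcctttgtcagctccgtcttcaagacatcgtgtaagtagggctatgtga
S100a9: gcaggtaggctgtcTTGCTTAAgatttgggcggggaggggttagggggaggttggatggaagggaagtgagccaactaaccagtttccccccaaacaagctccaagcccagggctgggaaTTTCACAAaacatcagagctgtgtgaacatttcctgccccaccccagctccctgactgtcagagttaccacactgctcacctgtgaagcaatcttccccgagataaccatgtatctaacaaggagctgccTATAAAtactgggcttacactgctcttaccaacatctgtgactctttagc
Mmp8: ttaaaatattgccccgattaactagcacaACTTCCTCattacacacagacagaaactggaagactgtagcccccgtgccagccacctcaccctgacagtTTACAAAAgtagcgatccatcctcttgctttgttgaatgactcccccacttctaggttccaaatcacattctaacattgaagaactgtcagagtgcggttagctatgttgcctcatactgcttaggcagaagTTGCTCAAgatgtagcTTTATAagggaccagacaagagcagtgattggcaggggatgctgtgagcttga
Ltf: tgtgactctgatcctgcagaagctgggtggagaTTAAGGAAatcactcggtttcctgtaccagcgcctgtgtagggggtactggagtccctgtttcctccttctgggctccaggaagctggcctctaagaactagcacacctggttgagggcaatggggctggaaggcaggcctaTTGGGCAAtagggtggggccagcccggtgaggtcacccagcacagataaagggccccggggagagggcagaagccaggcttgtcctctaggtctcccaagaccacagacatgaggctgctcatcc

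The windows are chr3:90668821-90669120 on the plus strand (*S100a8*), chr3:90695672-90695971 on the minus strand (*S100a9*), chr9:7558179-7558478 on the plus strand (*Mmp8*) and chr9:111019042-111019341 on the plus strand (*Ltf*). Of the members, 9 had a window, and *Mmp9* had none in the table used. The C/EBP pattern was in 7 of those 9 windows and in 40.7% of all 32851 windows of that length. The PU.1 pattern was in 2 of 9, *S100a8* and *Mmp8*, and in 3.20% of all windows, and the TATA pattern in 3 of 9 and in 13.6%. A match gives only the letters present in the window.

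Tumor-bearing hearts held far more of every member than non-tumor-bearing hearts. The alarmin *S100a8* had 8, 1, 3, 5 and 3 counts in the 5 Control libraries and 19, 15, 206, 83 and 14 in the 5 DOX libraries. In Tb its level ran from 205 to 2215 FPKM with a median of 840, and in Tb-DOX it was 960, 1101, 818, 1813 and 354 FPKM. No Control or DOX library reached the lowest tumor-bearing library.

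Its partner *S100a9*, with which it forms calprotectin, had 10, 9, 7, 26 and 6 counts in Control and 84, 32, 393, 128 and 38 in DOX. Its level was 496 to 4214 FPKM in Tb (median 1821) and 1847, 2154, 1539, 3408 and 715 in Tb-DOX. *S100a9* lay above *S100a8* per length in all 11 tumor-bearing libraries and in all 5 of Control.

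**Figure D1:**
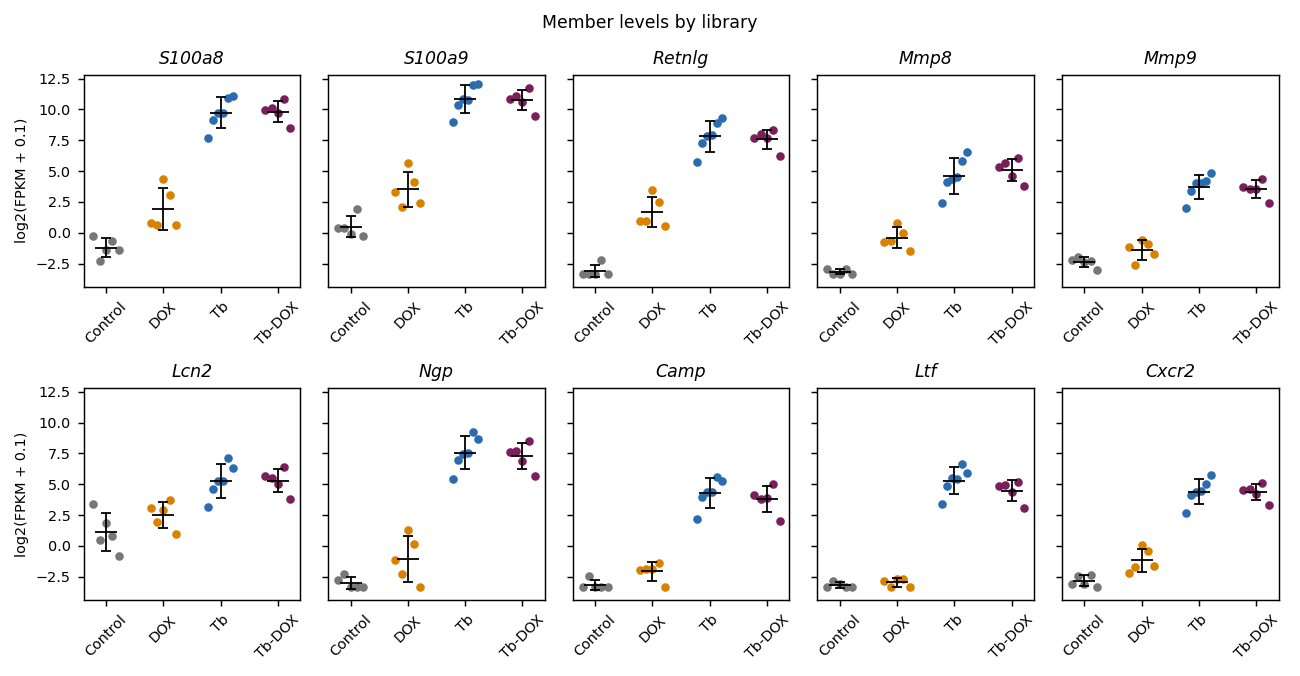
Level of each member in each library as log2(FPKM + 0.1), by group, with bars for the group mean and SD on that scale (n = 5, 5, 6 and 5). Tb and Tb-DOX libraries lie together and above the Control and DOX libraries, except for *Lcn2*, where they overlap.

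*Retnlg* was near absence in Control, with 0, 0, 0, 1 and 0 counts, and had 18, 16, 97, 47 and 11 counts in DOX. In Tb it stood at 52.4 to 616 FPKM (median 238), and in Tb-DOX at 201, 253, 200.3, 316 and 74.1. *Mmp8*, which cuts fibrillar collagens, had 1, 0, 0, 1 and 0 counts in Control and 20, 19, 59, 30 and 9 in DOX. It reached 5.08 to 91.4 FPKM in Tb (median 21.6) and 39.5, 50.7, 24.5, 66.0 and 13.4 in Tb-DOX. For both genes every DOX library lay above every Control library.

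*Cxcr2* had 1, 4, 1, 4 and 0 counts in Control and 6, 9, 43, 28 and 10 in DOX. Its level was 6.28 to 55.1 FPKM in Tb (median 21.4) and 23.3, 25.0, 18.4, 34.3 and 9.99 in Tb-DOX. *Mmp9* had 6, 8, 5, 5 and 1 counts in Control and 21, 3, 29, 21 and 10 in DOX, where DOX replicate 2 fell inside the Control range. It was 3.91 to 27.8 FPKM in Tb (median 15.9) and 5.07 to 20.6 in Tb-DOX (median 11.8).

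*Ngp*, *Camp* and *Ltf*, filled into specific granules, had few counts without a tumor. *Ngp* had 1, 2, 0, 0 and 0 counts in Control and 7, 2, 44, 18 and 0 in DOX. *Camp* had 0, 1, 0, 0 and 0 in Control and 2, 2, 2, 3 and 0 in DOX, and *Ltf*, which binds iron, had 0, 2, 1, 0 and 0 in Control and 2, 0, 3, 3 and 0 in DOX. All 3 overlapped between Control and DOX.

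With a tumor, *Ngp* was 42.7 to 591 FPKM in Tb (median 183) and 198, 205, 119, 368 and 51.5 in Tb-DOX. *Ltf* was 10.3 to 101 FPKM in Tb (median 43.7) and 28.9, 31.3, 20.6, 36.2 and 8.43 in Tb-DOX, and *Camp* 4.58 to 49.2 in Tb (median 20.9) and 4.07 to 32.5 in Tb-DOX (median 15.1). *Lcn2*, whose product binds bacterial siderophores and which many cell types transcribe, behaved apart: it had 427, 51, 151, 58 and 19 counts in Control and 364, 148, 286, 480 and 67 in DOX. Its level was 8.60 to 137 FPKM in Tb (median 37.5) and 14.1 to 86.8 in Tb-DOX (median 46.0), and Control replicate 1, at 10.3 FPKM, lay above the lowest Tb library.

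Per length, the order of the means in tumor-bearing hearts was *S100a9*, *S100a8*, *Retnlg*, *Ngp*, *Lcn2*, *Ltf*, *Mmp8*, *Cxcr2*, *Camp* and *Mmp9*. *S100a8* lay above *Retnlg* and *Ngp* above *Lcn2* in 11 of 11 libraries, but *Ltf* lay above *Mmp8* in 5 of 11 and *Lcn2* above *Ltf* in 7 of 11, so that these neighbors were not separated. By group, *Ltf* lay above *Mmp8* in 5 of 6 Tb libraries, and *Mmp8* above *Ltf* in 5 of 5 Tb-DOX libraries. In Control the order was led by *Lcn2* (3.45 ± 3.97 FPKM, SD, n = 5) before *S100a9* (1.52 ± 1.20), which it exceeded in 3 of 5 libraries. *Lcn2* counts per 100 *S100a8* counts, pooled per group, were 3530 in Control, 399 in DOX, 19.0 in Tb and 17.3 in Tb-DOX. Without DOX replicate 3 the DOX value was 808, and without Control replicate 1 the Control value was 2325.

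Members varied more between libraries of a group than most genes. The coefficient of variation in Tb was 52.0% (*Mmp9*) to 91.3% (*Mmp8*), with a median over all tested genes of 21.7%, and in Tb-DOX 40.2% (*Cxcr2*) to 63.0% (*Ngp*), with a median of 15.2%. Tb replicate 1 was lowest in its group for all 10 members, and Tb-DOX replicate 5 in its group likewise.

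To ask how DOX changed the members without a tumor, DOX was compared with Control. Changes are fitted log2 fold changes ± SE from edgeR. *Retnlg* stood at 7.02 ± 1.46, *Mmp8* at 5.87 ± 1.47, *S100a8* at 4.16 ± 1.01, *S100a9* at 3.62 ± 0.77 and *Cxcr2* at 3.34 ± 0.93. *Mmp9* followed at 1.87 ± 0.69 and *Lcn2* at 1.12 ± 0.71. The other members stood on few counts: *Ngp* at 4.45 ± 1.78, *Camp* at 2.73 ± 1.83 and *Ltf* at 1.40 ± 2.02.

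Where Control held 1 to 3 counts in all, the pooled ratio with its exact 95% counting interval (Clopper-Pearson, counting error only) is the measure. It was 212-fold for *Retnlg* (37.5 to 8406), 76.7-fold for *Mmp8* (20.8 to 640) and 26.5-fold for *Ngp* (8.71 to 132). It was 10.1-fold for *Camp* (1.40 to 442) and 2.99-fold for *Ltf* (0.717 to 17.5). Intervals of this kind leave out the spread between libraries and are no test.

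Of the members, 6 met the rule for a called gene (adjusted p under 0.05 and a log2 fold change of at least 1) as higher and 0 as lower, against 4.16% and 5.79% of all 13990 genes tested. In 5 of 10 members the DOX libraries lay wholly above the Control libraries, against 6.13% of all genes. Nothing is read from these counts, since this contrast chose the members. DOX replicate 3 carried much of the size: without it *S100a8* was at 3.23, *S100a9* at 2.79, *Retnlg* at 6.39 and *Ngp*, with 44 of its 71 DOX counts there, at 3.46. Control libraries moved values too. Without Control replicate 4 *Retnlg* was at 8.43 and *S100a9* at 4.21, without Control replicate 2 *Ngp* was at 5.42, *Camp* at 4.14 and *Ltf* at 2.38, and without Control replicate 1 *Lcn2* was at 2.14. The median of the members was 3.48, beside 0.0024 for all genes.

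To ask the same in tumor-bearing hearts, Tb-DOX was compared with Tb, which shares no library with the contrast above and is the comparison in which the members were tested. No member was called, against 0.443% of all genes called higher and 0.665% called lower. DESeq2 called 0 as well, and 1 member, *Ltf*, had an unadjusted p under 0.05 with edgeR. All 10 members overlapped between the groups, whereas 2.27% of all genes lay wholly higher and 2.04% wholly lower. The median of the members was −0.32, beside −0.022 for all genes.

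*Ltf* had the largest difference, at −0.99 ± 0.39 on the log2 scale with a 95% interval of −1.81 to −0.17 (edgeR, adjusted p = 0.147, unadjusted p = 0.0185). Without Tb replicate 1 its value was −1.20 and it was called, the only member called when a library was left out. *Camp* followed at −0.64 ± 0.43 (edgeR, adjusted p = 0.421). The other 8 members stood between −0.52 (*Retnlg*) and 0.12 (*Mmp8*), with edgeR adjusted p of 0.564 to 0.912.

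The intervals bound what these 11 libraries allow. For *S100a8* the difference was −0.16 with an interval of −1.28 to 0.95, for *S100a9* −0.26 (−1.33 to 0.80), for *Cxcr2* −0.22 (−1.03 to 0.59) and for *Lcn2* −0.31 (−1.65 to 1.03). The interval of *S100a8* took in a fall of 1 log2 unit and ended just short of a rise of 1. The exact two-sided permutation test on log2(FPKM + 0.1) gave p of 0.225 (*Ltf*) to 0.987 (*Lcn2*), where 6 against 5 libraries allow 0.00216 at the smallest.

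**Figure D2:**
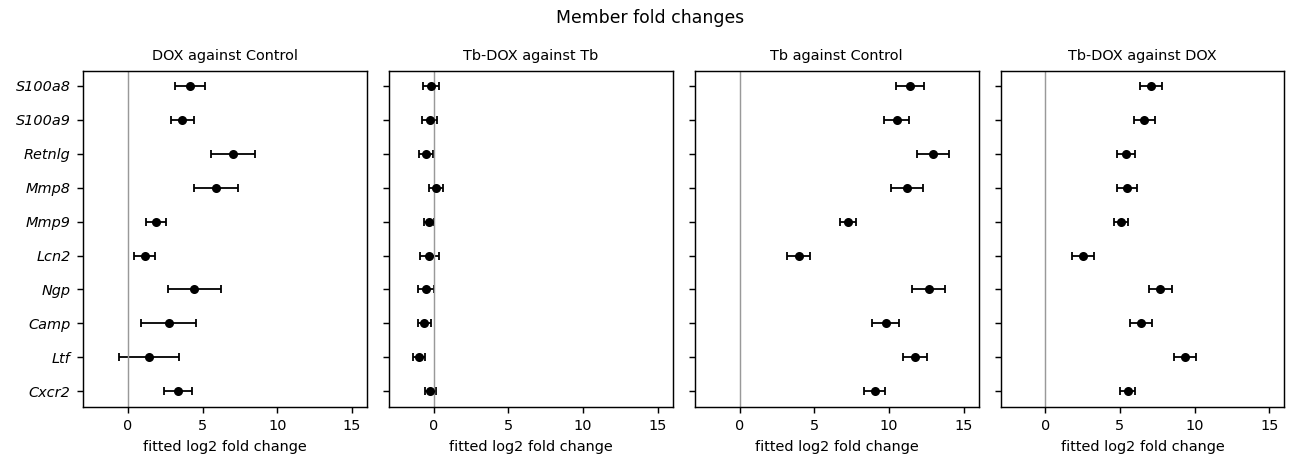
Fitted log2 fold change of each member with its SE in 4 comparisons, from 1 edgeR fit over 21 libraries. The Tb-DOX against Tb values lie between −0.99 and 0.12, and the Tb against Control values between 3.95 and 12.95.

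To ask how a tumor changed the members, Tb was compared with Control and Tb-DOX with DOX. In Tb against Control the fitted values ran from 3.95 ± 0.75 (*Lcn2*) and 7.26 ± 0.56 (*Mmp9*) to 12.66 ± 1.11 (*Ngp*) and 12.95 ± 1.04 (*Retnlg*). *S100a8* was at 11.41 ± 0.96 and *S100a9* at 10.51 ± 0.84. The pooled ratio was 2858-fold for *S100a8* (1850 to 4679) and 15.4-fold for *Lcn2* (14.2 to 16.6). All 10 members met the rule as higher, against 3.48% of all genes, and 9 of 10 did not overlap, against 4.55%. Nothing is read from these counts, since the Control libraries took part in the choice and 6 members passed the filter only through tumor-bearing libraries. The median of the members was 10.86, beside −0.0084 for all genes.

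In Tb-DOX against DOX, where the DOX group already held member counts, the values were smaller, from 2.52 ± 0.71 (*Lcn2*) to 9.35 ± 0.74 (*Ltf*), with *S100a8* at 7.09 ± 0.74 and *Retnlg* at 5.42 ± 0.60. All 10 met the rule as higher, against 4.37% of all genes, and all 10 did not overlap, against 14.3%, with the same limit. The median of the members was 5.95, beside −0.0077 for all genes. The Tb against Control comparison shares its Control libraries with DOX against Control, and this one shares its DOX libraries.

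The difference of the DOX effect between tumor states (the interaction) was below 0 for all 10 members, from −1.43 ± 0.96 (*Lcn2*) to −7.54 ± 1.57 (*Retnlg*). It was called lower for 5 members, against 1.85% of all genes. That count uses the contrast that chose the members, and it was 1 with the replicate block, 8 with DESeq2, 2 with limma on log2(FPKM + 0.1) and 0 with limma on log2(FPKM + 1).

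Ratios between members compare genes within a library. After the counts had been seen, all 45 ratios of counts between members were tested between Tb and Tb-DOX with an exact permutation test. None passed an adjusted p of 0.05 over the 45 (Benjamini-Hochberg, smallest adjusted p = 0.0584), and 20 had an unadjusted p under 0.05.

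The ratio of *Ltf* to *Mmp8* had the largest difference. Per 100 *Mmp8* counts there were 287, 246, 318, 262, 259 and 96.3 *Ltf* counts in the 6 Tb libraries and 104, 87.7, 119, 77.9 and 89.8 in the 5 Tb-DOX libraries. All Tb libraries but replicate 6 lay above all Tb-DOX libraries. The mean difference was −1.28 on the log2 scale (exact permutation p = 0.0130, adjusted p = 0.0584 over 45 ratios). *Ngp* per 100 *Mmp8* counts was 423, 378, 454, 403, 539 and 226 in Tb and 253, 204, 244, 281 and 194 in Tb-DOX (exact permutation p = 0.0173, adjusted p = 0.0599). Without Tb replicate 6, 19 of 45 ratios passed and *Ltf* to *Mmp8* was at −1.53 (exact permutation test, adjusted p = 0.0255), so that this 1 library decides the call.

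**Figure D3:**
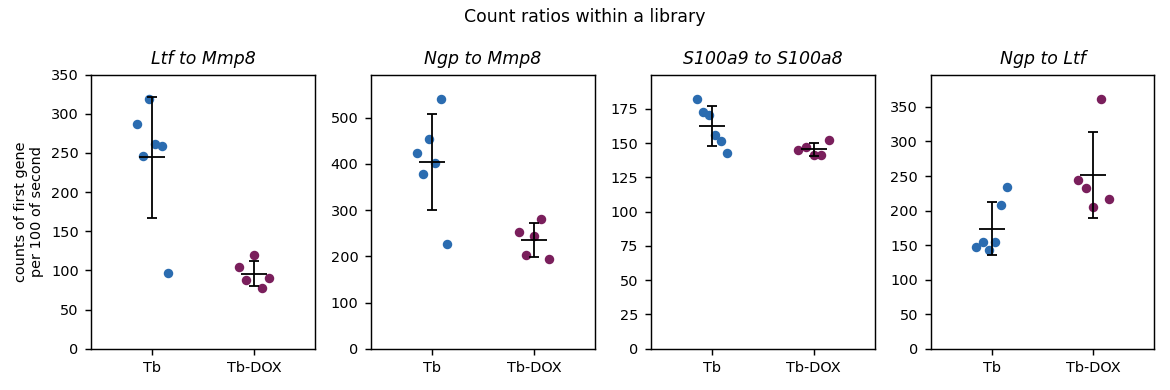
Counts of the first gene per 100 counts of the second in each tumor-bearing library, with bars for the mean and SD (Tb, n = 6; Tb-DOX, n = 5). For *Ltf* to *Mmp8*, 5 of the Tb libraries sit at 246 to 318 and Tb replicate 6 at 96.3, among the Tb-DOX libraries at 77.9 to 119.

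In the 11 tumor-bearing libraries, with log2(TMM-scaled CPM + 0.5) values centered on the group means, *S100a8* correlated with *S100a9* at Pearson's r = 0.999 (Spearman's rho 0.991, permutation p = 3e-05 and 9e-05, adjusted p = 9.33e-05 and 0.000233 over 7 relations). With *Retnlg* r was 0.991 (rho 0.936, permutation p = 3e-05 and 0.00039, adjusted p = 9.33e-05 and 0.000683), and with *Cxcr2* 0.981 (rho 0.982, permutation p = 4e-05 and 6e-05, adjusted p = 9.33e-05 and 0.000233). *Lcn2* gave r = 0.980 (rho 0.973, permutation p = 7e-05 and 0.0001, adjusted p = 0.000122 and 0.000233). These 4 members thus varied with *S100a8* between tumor-bearing libraries. Without Tb replicates 1 and 5, the farthest in *S100a8*, r was 0.997, 0.983, 0.983 and 0.978 in that order. Over all 21 libraries, which include those that chose the members, r was 0.944, 0.969, 0.925 and 0.706, as a description. The choice of the tumor-bearing libraries for this test was made after the data were seen.

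*S100a8* and *Lcn2* correlated at 0.421 among the non-tumor-bearing libraries, as a description. The relation of *S100a8* with the globin gene *Hbb-bs*, a marker of red cells, was r = 0.022 in the tumor-bearing libraries (rho −0.109, permutation p = 0.943 and 0.754, adjusted p = 0.943 and 0.851), and −0.156 without the 2 farthest. For the monocyte gene *Ly6c2* it was 0.251 (rho 0.064, permutation p = 0.385 and 0.851, adjusted p = 0.449 and 0.851), and 0.462 without them. For *Cd3e* it was 0.541 (rho 0.645, permutation p = 0.176 and 0.0316, adjusted p = 0.246 and 0.0442), and 0.276 without them. Spearman's rho, the only form that passed for *Cd3e*, was not computed without those libraries.

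**Figure D4:**
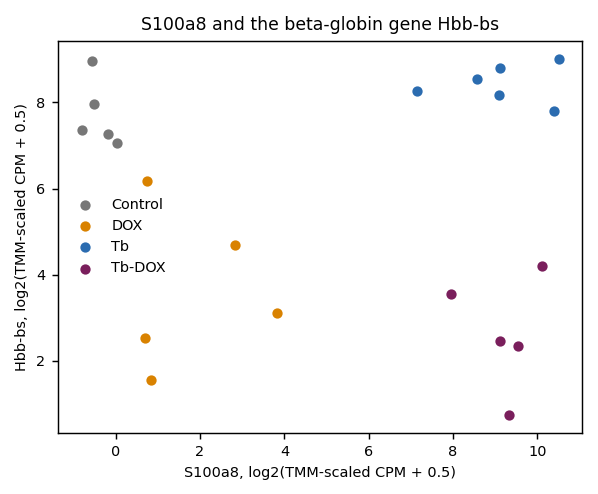
*S100a8* against *Hbb-bs* in 21 libraries, both as log2(TMM-scaled CPM + 0.5), colored by group. Tb and Tb-DOX libraries share the *S100a8* range but lie apart in *Hbb-bs*, which was 330 to 631 FPKM in Tb and 1.58 to 26.4 in Tb-DOX.

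Across all 21 libraries tested non-members close to the mean of the members' standardized levels were *Ifitm6* (r = 0.995), *Cd177* (0.992), *Ifitm1* (0.992) and *Fpr2* (0.990). *Cd177* and *Fpr2* encode neutrophil surface proteins. In all, 100 non-members had r over 0.95. These values reflect the 4 groups and are among the highest of 13990 genes, so they are a description.

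To see whether other neutrophil genes did the same, 42 of them in 4 lists were tested over all genes, of which 35 passed the filter and 12 would have passed it in the non-tumor-bearing libraries alone. Tb against Control called 34 of 35 higher and 0 lower, against 3.48% and 0.122% of all genes. The median log2 fold change of the 35 was 6.71 beside −0.0084 for all genes. Genes that passed only through tumor-bearing libraries had to be higher there. Among the 12 that did not need them, 11 were called higher and 0 lower, with a median of 5.50. The gene not called was *G0s2*, at −0.13 ± 0.42, which encodes an inhibitor of fat breakdown. Whether cells other than neutrophils set its level, or the levels of the 11 called genes, was not tested.

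All 13 tested surface genes were called higher in Tb, of which 4 passed the filter without the tumor-bearing libraries. *Csf3r*, the receptor for the granulocyte growth factor and the most abundant of them, was at 5.93 ± 0.40 (edgeR, adjusted p = 7.76e-09). The formyl peptide receptor *Fpr1* was at 6.41 ± 0.67 and the integrin chain *Itgam* at 4.02 ± 0.48, both passing the filter only through the tumor-bearing libraries. Others called were *Fcgr4*, *Fpr2*, *Clec4d*, *Clec4e*, *Il1r2*, *Ltb4r1*, *Mrgpra2b* and *Trem1*. *Ly6g*, the standard surface marker of mouse neutrophils, had 0 FPKM in all 5 Control libraries and 0 to 0.07 in DOX, on 1 count in all. It was 4.25 to 20.3 FPKM in Tb and 3.21 to 8.63 in Tb-DOX.

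All 10 tested granule genes outside the azurophil list, of which 4 passed it likewise, were also called higher in Tb, from *Lrg1* at 1.37 ± 0.36 and the annexin *Anxa1* at 2.66 ± 0.38 to *Wfdc21* and *Cd177*, the last 2 with no count in Control. Between them stood *Adam8*, *Hp*, *Pglyrp1*, *Mcemp1*, *Chil3* and *Olfm4*. *Lrg1* lost its call without Tb replicate 5 or without Tb replicate 6, and without 3 of the Control libraries, and also with only the 2 groups compared, with the replicate block and with limma at both pseudocounts. Of the cytoplasmic and secreted genes 8 of 9 were called, among them *Il1b* at 5.86 ± 0.66 and the histidine decarboxylase *Hdc* at 3.77 ± 0.46. Both passed the filter only through the tumor-bearing libraries. In this list 4 genes passed without those libraries, and 3 of the 4 were called. The others were *Mxd1*, *Padi4*, *Il36g*, *Stfa2l1*, *Asprv1* and *Ifitm6*. *Padi4* encodes the enzyme that citrullinates histones in neutrophil extracellular traps.

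Tb-DOX against Tb called 0 of the 35, against 0.443% of all genes called higher and 0.665% called lower. That count is near the share, so nothing is read from it. Of the 35, 4 had an unadjusted p under 0.05 with edgeR and 2 (*Ly6g* and *Mpo*) were called by DESeq2. The median log2 fold change of the 35 was −0.27 beside −0.022 for all genes. *Ly6g* was at −1.05 ± 0.30 (edgeR, adjusted p = 0.0541). Tb-DOX against DOX called 30 of 35 higher, against 4.37% of all genes, and 10 of the 12 that passed the filter without the tumor-bearing libraries.

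**Figure D5:**
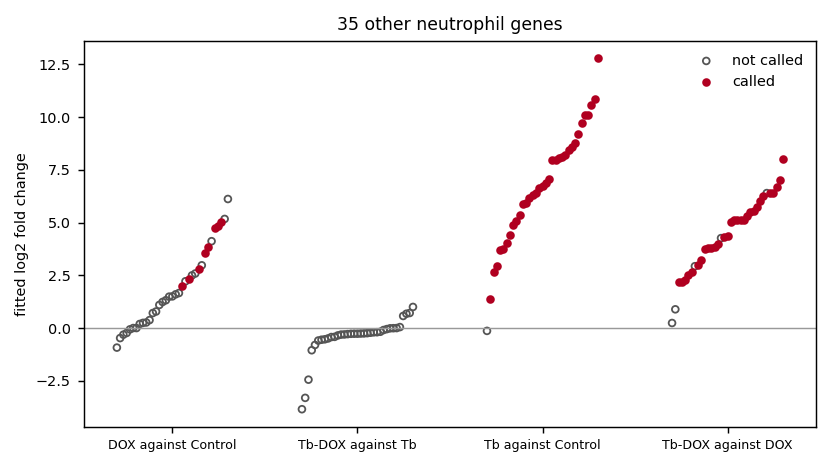
Fitted log2 fold changes of 35 tested neutrophil genes outside the members in 4 comparisons, each point a gene and filled where called. Called genes number 8, 0, 34 and 30 from left to right.

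DOX against Control called 8 of the 35 higher and 0 lower, against 4.16% and 5.79% of all genes. The median of the 35 was 1.501 beside 0.0024 for all genes. Among the 12 that passed the filter without the tumor-bearing libraries, 4 were called higher and 0 lower, with a median of 1.49. *Clec4d*, a pattern receptor of myeloid cells, was 0.26 to 0.37 FPKM in Control and 0.94 to 4.23 in DOX, at 2.79 ± 0.62 (edgeR, adjusted p = 0.00166). *Clec4e* and *Chil3* were called too, the first at 0.01 FPKM or less in Control and 0.04 to 0.50 in DOX. *Clec4d*, *Clec4e* and *Chil3* kept their calls when any 1 library was left out, and *Clec4e* and *Chil3* lost theirs with limma on log2(FPKM + 1). *Fpr2*, *Ifitm6*, *Asprv1* and *Wfdc21* each lost theirs when 1 of 5 to 8 libraries was left out, DOX replicates 3 and 4 among them for each gene. Each of these genes also lost its call with limma on log2(FPKM + 1). *Fpr2* and *Wfdc21* lost theirs with the replicate block, and *Wfdc21* at a mean FPKM of at least 5. *Csf3r*, by contrast, stood at 0.24 ± 0.43 (edgeR, adjusted p = 0.689). The interaction was called lower for 3 of the 35, *Clec4d* and *Clec4e* among them, against 1.85% of all genes. Of the 12 that passed the filter without the tumor-bearing libraries 1 was called lower, and *Clec4e* passed only through those libraries. The count of 3 became 1 with the replicate block, 12 with DESeq2 and 0 with limma.

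The azurophil granule genes, which are filled first in the marrow, set Tb replicate 5 apart. *Mpo*, encoding myeloperoxidase, had 0.13, 0.75, 0.92, 0.46, 8.50 and 0.49 FPKM in the 6 Tb libraries, 0.07 to 0.39 in Tb-DOX and was listed at 0 in all libraries without a tumor. *Ctsg* had 9.59 and *Prtn3* 8.71 FPKM in Tb replicate 5, and at most 1.12 and 0.89 in the other Tb libraries. All 3 were called higher in Tb against Control, and *Ctsg* lost the call without any 1 of the 5 Control libraries. None of the 3 passed the filter without the tumor-bearing libraries, so being tested favored a higher level there. *Ctsg* and *Prtn3* also lost the call with only the 2 groups compared, with the replicate block and with limma on log2(FPKM + 1), which removed the call of *Mpo* too. *Prtn3* lost it with limma on log2(FPKM + 0.1) as well. In Tb-DOX against Tb edgeR called none of them, and DESeq2 called *Mpo*. *Mpo* was at −3.31 ± 1.02 there (edgeR, adjusted p = 0.0827), *Ctsg* at −3.85 ± 1.24 (edgeR, adjusted p = 0.0945) and *Prtn3* at −2.45 ± 0.85 (edgeR, adjusted p = 0.0989), with Tb replicate 5 among the Tb libraries.

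*Cxcl1*, *Cxcl2* and *Cxcl5*, whose products attract neutrophils through *Cxcr2*, and the cytokine gene *Il6* were highest in the same library. *Cxcl1* was at 69.7 FPKM in Tb replicate 5 and 0.52 to 1.74 in the other Tb libraries, and 0.71 to 13.3 in Tb-DOX. *Cxcl2*, *Cxcl5* and *Il6* were called higher with *Cxcl1* in Tb against Control, and all 4 lost the call without Tb replicate 5 and also without each of 3 to 5 of the Control libraries, and with DESeq2, the replicate block, limma and only the 2 groups compared. *Cxcl2*, *Cxcl5* and *Il6* passed the filter through the tumor-bearing libraries alone. The P-selectin gene *Selp* (5.45 ± 1.17, edgeR, adjusted p = 0.00504), *Sele* (4.33 ± 1.15, edgeR, adjusted p = 0.0242) and *Icam1* (1.86 ± 0.55, edgeR, adjusted p = 0.0479), with which endothelium captures neutrophils, were called as well, and of these *Sele* and *Icam1* lost the call without Tb replicate 5 or any 1 Control library, and with the replicate block, limma and only the 2 groups compared. *Selp* was 0.51, 0.88, 1.08, 1.44, 29.3 and 2.46 FPKM in the 6 Tb libraries, replicate 5 being the highest, and lost its call with DESeq2, with the replicate block and with limma on log2(FPKM + 1). *Selp* and *Sele* also passed the filter through the tumor-bearing libraries alone. *Vcam1* was called only in Tb-DOX against DOX (1.16 ± 0.20, edgeR, adjusted p = 0.000319), and not without Tb-DOX replicate 4. It stood at −0.96 ± 0.20 in DOX against Control (edgeR, adjusted p = 0.000745), short of the fold change for a call. In Tb against Control it was at 0.33 ± 0.18 (edgeR, adjusted p = 0.307). The platelet chemokine gene *Ppbp* fell with DOX in non-tumor-bearing hearts, by 2.17 ± 0.82 (edgeR, adjusted p = 0.0431), a call that 8 of the libraries each removed when left out.

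Of the transcription factors of granulocyte development, *Spi1*, encoding PU.1, was called higher in Tb against Control (2.96 ± 0.35, edgeR, adjusted p = 5.13e-06) and in Tb-DOX against DOX (3.54 ± 0.38, edgeR, adjusted p = 2.36e-06). *Cebpa*, *Cebpb* and *Cebpd* were not called in any comparison. *Cebpe* and *Gfi1* did not pass the filter and were not tested. *Cebpe* was 0 FPKM in all 5 Control libraries, 0 to 0.06 in DOX, 0.05 to 1.63 in Tb and 0 to 1.99 in Tb-DOX. *Gfi1* was at most 0.14 FPKM, in Tb. Of the receptors and inhibitors of the member proteins, 0 of 7 tested were called in any comparison, among them the abundant scavenger receptor *Cd36* and the metalloproteinase inhibitors *Timp1* to *Timp4*. *Timp3* stood at −0.07 ± 0.18 in Tb-DOX against Tb.

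Markers of other blood cells were read beside the members. The 5 tested erythroid genes (*Hba-a1*, *Hba-a2*, *Hbb-bs*, *Hbb-bt* and *Alas2*) were called lower with DOX in both states, with medians of −3.34 without and −5.28 with a tumor, and 0 of 5 were called in Tb against Control. Macrophage markers were called higher for 0 of 8 in Tb against Control, and *Adgre1* and *Csf1r* were called lower in DOX against Control, at −1.98 ± 0.25 and −1.20 ± 0.16. In Tb-DOX against DOX the same genes were called higher, 2 of 8, at 1.23 ± 0.26 and 1.03 ± 0.16, and *Csf1r* lost that call without DOX replicate 5, Tb-DOX replicate 2 or Tb-DOX replicate 4. The monocyte receptor gene *Ccr2* fell with DOX by 1.90 ± 0.32 without and 1.30 ± 0.27 with a tumor (edgeR, adjusted p = 0.000155 and 0.00937) and rose with a tumor by 1.59 ± 0.27 (edgeR, adjusted p = 0.000507). The monocyte markers did not move as 1: *Ly6c2* and *Plac8* stood at 0.75 ± 0.26 and 0.67 ± 0.93 in DOX against Control, neither called. *Plac8*, which neutrophils also transcribe, was at 6.15 ± 0.64 in Tb against Control. Both *Ccr2* and *Plac8* passed the filter through the tumor-bearing libraries alone. *F13a1*, *Pf4* and the mast cell gene *Cpa3* were called lower in DOX against Control. *F13a1* stood at 0.03 ± 0.25 in Tb-DOX against Tb. The platelet marker *Gp1ba* was at 0.79 ± 0.27 in DOX against Control (edgeR, adjusted p = 0.0261), short of the fold change for a call. The calls of *Ccr2*, *Adgre1*, *Csf1r* and *Cpa3* given here were all lost with limma on log2(FPKM + 1). The summed macrophage markers ran from 59.5 to 80.7 FPKM in Control, 26.2 to 51.0 in DOX, 72.9 to 91.4 in Tb and 42.1 to 99.5 in Tb-DOX. The summed erythroid markers ran from 252 to 1094, 4.77 to 146, 527 to 976 and 2.99 to 39.97 FPKM. Their part in the member values was not tested. Of the 6 T cell markers 2 passed the filter, *Cd28* and *Cd3e*, and only *Cd3e* was called. It was 0 to 0.32 FPKM in Control and 0.98, 1.68, 3.49, 66.7 and 2.10 in DOX, a call that held without any 1 library and was lost with DESeq2. From Control to DOX the mean FPKM went from 1.20 to 0.80 for *Cd28*, 0.054 to 0.040 for *Cd3d* and 0.088 to 0.020 for *Cd3g*. It went from 0.080 to 0.050 for *Cd4* and from 0.012 to 0.090 for *Cd8a*. In DOX replicate 4, the highest in *Cd3e*, *Cd3d* had 0 counts and *Cd3g* 3. The thymocyte and B cell markers did not pass the filter.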

How the data were processed

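Per gene and library, the table that the authors deposited holds the read count as a whole number, not normalized, and the FPKM, which is that count scaled to gene length and depth. The submitters' processing notes list cutadapt, FastQC, HISAT2, HTSeq 0.6.1, DESeq2 1.34.0 and GRCm39. Groups came from the labels. The members, gene lists and tests were chosen with earlier results of these data known.

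All 21 libraries entered 1 quasi-likelihood fit of edgeR 4.0.16 (R 4.3.3, TMM, a coefficient per group), over the 13990 genes whose FPKM averaged 0.5 or more, with Benjamini-Hochberg adjustment. A gene was called at an adjusted p below 0.05 where its log2 fold change was 1 or more in size. The fit was tested on simulated counts. Named genes were every member, the called genes of each list, otherwise its most abundant, and the 5 closest non-members, less a gene that is not reported here. The ratios were added after the data were seen. Alternatives were median-ratio scaling, other filters, only the groups compared, a replicate block, DESeq2 1.42.0, limma 3.58.1 and leaving out each library. RefSeq windows (GRCm38.p6) matched 9 of 10 members. No protein is printed. Depth sets counting error, which the counting intervals cover alone.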

Additional observations from a re-analysis of the deposited data

Results flagged for a closer look

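Dixon's test for a single stray value was run within each group on the members, on 3 azurophil genes and on 6 chemoattractant and growth factor genes, 72 groups of values in all, and set 19 values apart. Chance gives about 1 in 20 groups. The 2 gene lists were added with Tb replicate 5 in view, so their share is not independent of it. Of the 40 member groups, 4 values stood apart: *S100a9* in Control replicate 4 (3.64 FPKM) and in DOX replicate 3 (50.4), and *Retnlg* in Control replicate 4 (0.12) and *Camp* in Control replicate 2 (0.09), each on 1 count. In the last 2 the other 4 libraries were at 0, which fixes the test, so 17 values stood apart otherwise.

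In Tb replicate 5, *Mpo* was at 8.50 FPKM, *Prtn3* at 8.71, *Ctsg* at 9.59, *Cxcl1* at 69.7, *Cxcl2* at 13.8, *Cxcl5* at 22.8 and *Il6* at 38.1, each far above the other Tb libraries. In Tb-DOX replicate 4, *Cxcl1* was at 13.3 FPKM, *Cxcl2* at 0.82, *Cxcl5* at 1.40 and *Il6* at 0.94. *Prtn3* was lowest in Tb-DOX replicate 5, at 0.03 FPKM. Without a tumor, *Cxcl2* stood apart in Control replicate 1 (0.12) and DOX replicate 3 (0.42), and *Cxcl5* in DOX replicate 1 (0.42).

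The effect of DOX differed between tumor states for *Clec4e*, at −5.41 (adjusted p = 0.0181), and *Clec4d*, at −2.88 (adjusted p = 0.0274), both neutrophil genes outside the members, by the interaction test of edgeR. *Clec4d* lost the call without DOX replicate 3, with the replicate block and with limma at both pseudocounts, and *Clec4e*, with 2 counts in all of Control, with limma at both. *Clec4e* also passed the filter only through the tumor-bearing libraries.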

How the results depend on the processing

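Every member fold change in Tb against Control and in Tb-DOX against DOX kept its direction and its call under each alternative run (290 values per comparison, over the 10 members). Same-numbered libraries of different groups had residuals that correlated at −0.234 to 0.210, and 2 of 21 libraries correlated best with their own number, so the numbers did not pair the libraries. Depth limits the members in Control most, where 5 of them had 3 counts or fewer in all.

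Called members in DOX against Control were 3 with limma on log2(FPKM + 1), 8 with DESeq2, 7 with no filter and with only the 2 groups, and 5 to 7 when 1 library was left out. Of the other neutrophil genes in that comparison, 13 were called with DESeq2, 12 with no filter and with only the 2 groups, and 4 to 12 when 1 library was left out. With limma 11 were called on log2(FPKM + 0.1), 10 higher and 1 lower, and 2 on log2(FPKM + 1), 1 higher and 1 lower. In Tb-DOX against Tb, leaving out 1 library gave 0 to 1 members (1 without Tb replicate 1) and 0 to 1 other genes, and other genes numbered 3 with no filter, 1 with the mean FPKM minimum at 5 and 2 with DESeq2. With a mean FPKM of at least 5, fewer genes were tested and 20 others were called in Tb against Control and 19 in Tb-DOX against DOX. For the interaction, members called were 1 with the replicate block, 8 with DESeq2, 2 with limma on log2(FPKM + 0.1), 0 with limma on log2(FPKM + 1) and 2 to 7 when 1 library was left out. Others were 6 with no filter, 1 at a mean FPKM of at least 5, 1 with the replicate block, 12 with DESeq2, 0 and 0 with the 2 limma settings, and 1 to 9 when 1 library was left out. Ratios past the threshold were 0 to 19, the 19 without Tb replicate 6. Apart from fewer genes or libraries, the cause was not tested.

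The signs of uncalled member differences in Tb-DOX against Tb turned. With the replicate block, *S100a8* was at 0.35, *S100a9* at 0.087, *Retnlg* at 0.017, *Ngp* at 0.032 and *Cxcr2* at 0.20. With limma, *S100a8* was at 0.081 for both pseudocounts, and *Lcn2* at 0.019 and 0.00987. When 1 library was left out, *S100a8* ran from −0.42 to 0.15, *S100a9* from −0.51 to 0.037, *Mmp8* from −0.10 to 0.59, *Lcn2* from −0.61 to 0.30, *Ngp* from −0.83 to 0.025 and *Cxcr2* from −0.42 to 0.091.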
